A study of Homo sapiens with 4 samples.

Results

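The stress keratins are the 5 genes KRT6A, KRT6B, KRT6C, KRT16 and KRT17, taken by gene symbol from the 27356 genes that have a row in the deposited tables. All 5 have a row. Their RNA was measured in HaCaT cells, an immortalised human keratinocyte line, by sequencing polyadenylated RNA after 72 h of exposure. Cells of 2 libraries received phosphate-buffered saline (PBS) and those of 2 libraries received M5, a mix of 5 cytokines (IL-1α, IL-17, IL-22, TNF-α and Oncostatin M) at 10 μg/L each, added at a plating density of 50%. No other treatment is named in the protocols, but both M5 libraries carry a treatment tag with 25 μM of an agent called DAC, and the groups here follow the sample titles. All libraries come from 1 cell line, and nothing in the sources says that the replicates were cultured apart. Each p-value therefore reflects only how far libraries of a group differ, which can be technical spread.

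Keratins build the intermediate filaments of epithelial cells, and each filament pairs an acidic type I keratin with a basic type II keratin. In resting epidermis the basal layer carries KRT5 with KRT14, and the layers above it switch to KRT1 with KRT10. The type II keratins KRT6A, KRT6B and KRT6C and the type I keratins KRT16 and KRT17 are known as stress, alarm or wound-activated keratins: they are low or absent in most healthy epidermis between the hair follicles and appear after injury, in psoriatic plaques and in cultured keratinocytes. Variants of these genes cause pachyonychia congenita, a disorder of thickened nails and painful skin of the soles.

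The counts per library ranged from 15858644 to 19749612. All 13 listed keratinocyte markers, among them TP63 and the KRT5 and KRT14 pair, had a mean of at least 1 FPKM, where FPKM is a level scaled by gene length and library total. Every fibroblast and endothelial marker with a row stayed below 1 FPKM in each library. Of the 4 immune markers analysed, only CD14 exceeded 1 FPKM, at 2.30 and 1.55 FPKM in PBS and 4.64 and 5.10 FPKM in M5. The summed immune list thus ran from 1.65 to 2.53 FPKM in PBS and from 4.71 to 5.37 FPKM in M5, and its part in the results below was not tested. Of 6 melanocyte markers, MITF alone exceeded 1 FPKM, with a list sum between 1.42 and 2.48 FPKM in every library. Of 10809 genes with a mean of at least 1 FPKM, 55.9% differed between M5 and PBS (edgeR adjusted p under 0.05), 3114 higher and 2929 lower. Scaling to library totals in place of TMM, which trims extreme genes before it sets the scale, gave 2183 higher and 4492 lower and moved the median over the tested genes from -0.01 to -0.17 on the log2 scale. Fold changes below are relative to the TMM scale. In bulk RNA, more cells that express a gene and more RNA per cell cannot be told apart.

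The 4 stress keratins that passed the filter rose with M5, against 28.8% of all tested genes, and each rose at least 2-fold, against 6.48%. KRT6B passed only through its M5 level, its PBS mean being 0.642 FPKM. KRT6C was below the filter and was detected only in the M5 libraries. Among the 4 tested genes KRT6B rose most in relative terms and KRT6A gained most in FPKM. In each of the 5 genes both M5 libraries lay above both PBS libraries, as they did for 37.8% of tested genes, a set without KRT6C. The median log2 fold change of the 4 tested members was 2.67, beside -0.01 for all tested genes. With library totals it was 2.51, beside -0.17. Among the 10809 tested genes, KRT6B had the 32nd largest log2 fold change, KRT16 the 127th, KRT17 the 209th and KRT6A the 481st.

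**Figure D1:**
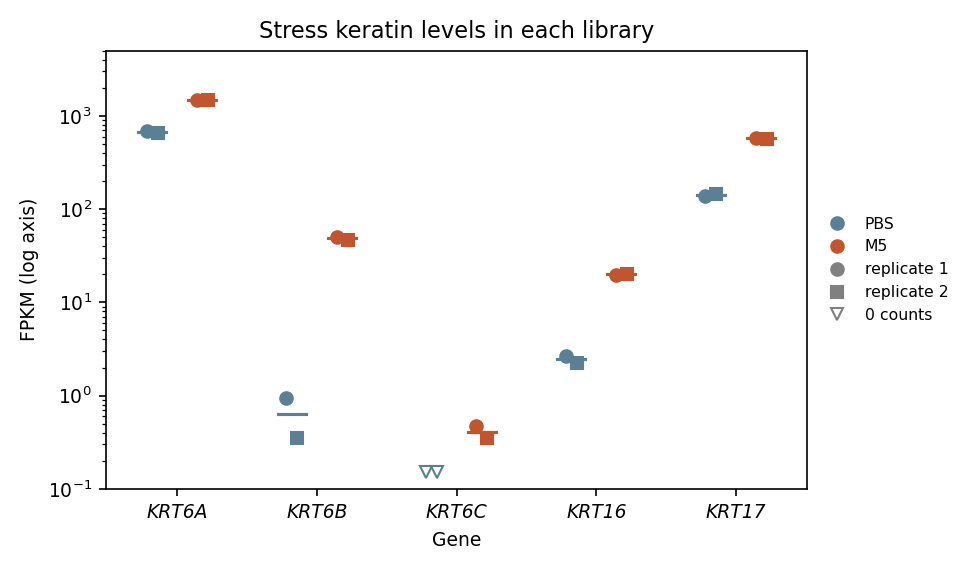
FPKM (log axis) of each stress keratin gene in the 4 libraries, with PBS in blue, M5 in orange, circles for replicate 1, squares for replicate 2, short lines for group means and open triangles for 0 counts. In every gene both M5 libraries lie above both PBS libraries, and the replicates of KRT6B in PBS are the widest apart.

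KRT6A encodes the type II keratin that made up most of the stress keratin RNA (ENSG00000205420, chromosome 12, 52487174 to 52493257, minus strand, GENCODE 29 on GRCh38). Its level was 689.7 and 663.4 FPKM in PBS and 1466 and 1490 FPKM in M5, from 32004, 31159, 81481 and 86088 counts. The replicates differed by a factor of 1.04 in PBS and 1.02 in M5, far less than the groups did. It rose 2.43-fold, or by 1.28 on the log2 scale (SE 0.05, 95% interval 1.18 to 1.38), with an edgeR adjusted p of 3.71e-14. KRT6A was already abundant without cytokines: by FPKM it ranked 27th and 30th of all genes in the PBS libraries and 12th in both M5 libraries. Its gain of 801 FPKM was the largest of any keratin.

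KRT6B, a neighbour of KRT6A in the type II cluster (ENSG00000185479, chromosome 12, 52446651 to 52452126, minus strand), went from barely detected to moderately abundant. It had 34 and 13 counts in PBS and 2202 and 2137 in M5, which is 0.931 and 0.352 FPKM against 50.4 and 47.0 FPKM. The M5 libraries were alike, while the PBS libraries differed by a factor of 2.65. KRT6B rose 84.1-fold, or by 6.39 on the log2 scale (SE 0.16, 95% interval 6.07 to 6.72, edgeR adjusted p = 5.26e-17). The size of that rise depended on the PBS libraries, with log2 values of 7.24 without PBS replicate 1 and 5.85 without PBS replicate 2. On the log2(FPKM + 1) scale, where the added 1 is larger than the PBS level, limma gave 4.94. Its rank by FPKM moved from 11131st and 13956th of all genes in PBS to 753rd and 821st in M5.

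KRT6C, the third KRT6 gene, lies between them (ENSG00000170465, chromosome 12, 52468516 to 52473785, minus strand). It had 0 counts in both PBS libraries and 26 and 20 counts in the M5 libraries, or 0.469 and 0.347 FPKM. Against a floor of 3 counts over the 2 PBS libraries together, its pooled level of 1.19 CPM (counts scaled by the library total) in M5 was at least 12.6-fold higher. KRT6B, its closest copy, had 47 counts in the PBS libraries together and 4339 in the M5 libraries. Whether reads of KRT6B were given to KRT6C was not tested. Fitted without the filter on low values, where 12.4% of 27356 genes were called higher, KRT6C was also called (edgeR adjusted p = 0.000503). That call was lost without M5 replicate 1 (edgeR adjusted p = 0.143) and without M5 replicate 2 (edgeR adjusted p = 0.119).

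The KRT6 genes are near-identical copies, which limits how surely a read can be given to 1 of them. Each has 1692 coding bases in GENCODE 29, and KRT6A differs from KRT6B at 42 of them and from KRT6C at 35, while KRT6B and KRT6C differ at 25. Identity of KRT6A was 97.5% to KRT6B, 97.9% to KRT6C and 82.5% to KRT5 over aligned coding bases. Of all windows of 100 bases along the main transcript, 18.2% in KRT6A, 24.6% in KRT6B and 31.7% in KRT6C occur letter for letter in a transcript of another gene. With windows of 50 bases the shares were 39.1%, 47.1% and 53.6%. The read length and the handling of reads that fit several genes are not given here. With the counts of all 3 copies summed to 1 gene, the log2 fold change was 1.31.

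KRT6B made up a larger part of the KRT6 counts in M5. It held 47 of 63210 KRT6 counts in PBS, or 0.0744% (exact 95% binomial interval 0.0546% to 0.0989%), and 4339 of 171954 in M5, or 2.52% (2.45% to 2.60%). Its share was 0.106% and 0.0417% in the PBS libraries and 2.63% and 2.42% in the M5 libraries, so the groups did not overlap. KRT6C made up 0 of 63210 in PBS, where the floor of 3 counts corresponds to 0.00475% and the exact 95% interval reaches 0.00584%, and 46 of 171954 in M5, or 0.0268% (0.0196% to 0.0357%). These intervals cover counting error only. KRT6A held 99.89% and 99.96% of KRT6 counts in the PBS libraries and 97.3% and 97.6% in the M5 libraries.

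KRT16 encodes a type I partner of the KRT6 proteins and is a common marker of psoriatic and wounded epidermis (ENSG00000186832, chromosome 17, 41609778 to 41615899, minus strand). Its level was 2.67 and 2.26 FPKM in PBS and 19.7 and 20.2 FPKM in M5, from 105, 90, 925 and 987 counts. The M5 libraries differed by a factor of 1.03 and the PBS libraries by 1.18. KRT16 rose 8.96-fold, or by 3.16 on the log2 scale (SE 0.12, 95% interval 2.92 to 3.41, edgeR adjusted p = 2.75e-14). Even so it remained the scarcer type I stress keratin, ranking 2246th and 2199th of all genes by FPKM in M5.

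KRT17, the other type I member, is found in hair follicles and appendages and is induced in activated epidermis (ENSG00000128422, chromosome 17, 41619441 to 41624842, minus strand). It lies next to KRT16, with 3542 bases between the annotated genes. Its level was 137.8 and 145.6 FPKM in PBS and 582 and 569 FPKM in M5, from 6549, 7002, 33131 and 33677 counts. Replicates differed by a factor of 1.06 in PBS and 1.02 in M5. KRT17 rose 4.51-fold, or by 2.17 on the log2 scale (SE 0.05, 95% interval 2.06 to 2.29, edgeR adjusted p = 7.39e-17), and went from 194th and 188th of all genes by FPKM to 37th and 39th.

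KRT16 and KRT17 also have close copies, several of them pseudogenes on chromosome 17. Over 100-base windows, 7.2% of the KRT16 transcript and 0.4% of the KRT17 transcript are shared letter for letter with another gene, in KRT16 most often with KRT14. Over 50-base windows the shares were 22.0% and 17.4%. Of 17 listed pseudogenes and near copies, 4 have a row, and none reached 1 FPKM in any library. The most abundant, KRT16P2, had 11 and 5 counts in PBS and 5 and 10 counts in M5, with no separation of the groups. No other annotated gene of GENCODE 29 overlaps a stress keratin gene on either strand.

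The order of the levels differed between the groups at 1 place. By FPKM it ran KRT6A, KRT17, KRT16, KRT6B and KRT6C in both PBS libraries and KRT6A, KRT17, KRT6B, KRT16 and KRT6C in both M5 libraries, and neighbours in each order were apart in every library. The 95% intervals of the 4 fitted fold changes did not overlap one another, although the differences between genes were not tested across genes. Ratios within single libraries differed between the groups as well. KRT17 exceeded KRT16 by 51.6 and 64.3 times in PBS and by 29.6 and 28.2 times in M5. KRT6A exceeded KRT6B by 741 and 1886 times in PBS and by 29.1 and 31.7 times in M5. In both ratios the groups did not overlap, and with 2 libraries against 2 the exact two-sided permutation test cannot go below its smallest p of 0.333, which it gave for each. The gene with the lower PBS level had the larger fold change throughout these 4. The gain in FPKM was 801 for KRT6A, 434 for KRT17, 48.0 for KRT6B and 17.5 for KRT16.

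The proportion of type II to type I members differed between the groups. The KRT6 genes together went from 691 and 664 FPKM in PBS to 1517 and 1537 FPKM in M5. KRT16 and KRT17 together went from 140.5 and 147.9 FPKM to 602 and 589 FPKM. KRT6 RNA per unit of KRT16 and KRT17 RNA was therefore 4.92 and 4.49 in PBS and 2.52 and 2.61 in M5 (exact two-sided permutation p = 0.333, the smallest possible). KRT6A supplied 82.4% ± 0.879 (SD, n = 2) of the summed stress keratin FPKM in PBS and 69.6% ± 0.610 in M5, and KRT17 supplied 17.3% ± 0.958 and 27.1% ± 0.503.

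Measured within the keratin RNA of each library, which needs no scaling between libraries, the stress keratins held a larger part in M5. They made up 19.0% and 18.9% of the counts of all 32 keratin genes with a row in PBS, and 41.3% and 42.9% in M5. The mean difference was 23.1 percentage points (exact two-sided permutation p = 0.333, the smallest possible), and 23.0 percentage points with FPKM in place of counts. As a share of all counts they went from 0.244% and 0.238% to 0.620% and 0.622%, while keratins as a whole went from 1.28% and 1.26% to 1.50% and 1.45%.

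Among type II keratins, KRT6A changed places with KRT5. The KRT6 genes held 35.2% and 34.3% of type II keratin FPKM in PBS and 64.9% and 66.6% in M5, and KRT5, the type II keratin of basal cells, held 38.7% and 38.9% in PBS and 15.5% and 14.6% in M5. The ratio of KRT6A to KRT5 FPKM was 0.908 and 0.881 in PBS and 4.04 and 4.43 in M5. KRT5 itself had 760 and 753 FPKM in PBS and 363 and 336 FPKM in M5, and fell by 0.96 on the log2 scale (SE 0.05), with an edgeR adjusted p of 9.27e-12. Among type I keratins KRT14, the basal partner of KRT5, stayed the most abundant. KRT16 and KRT17 went from 6.49% and 7.003% of type I keratin FPKM to 22.4% and 23.3%, while KRT14 went from 62.8% and 62.4% to 57.2% and 54.6%. KRT14 rose by 0.27 on the log2 scale (SE 0.05), with an edgeR adjusted p of 0.000281, a call that was lost with library totals and with limma on FPKM.

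**Figure D2:**
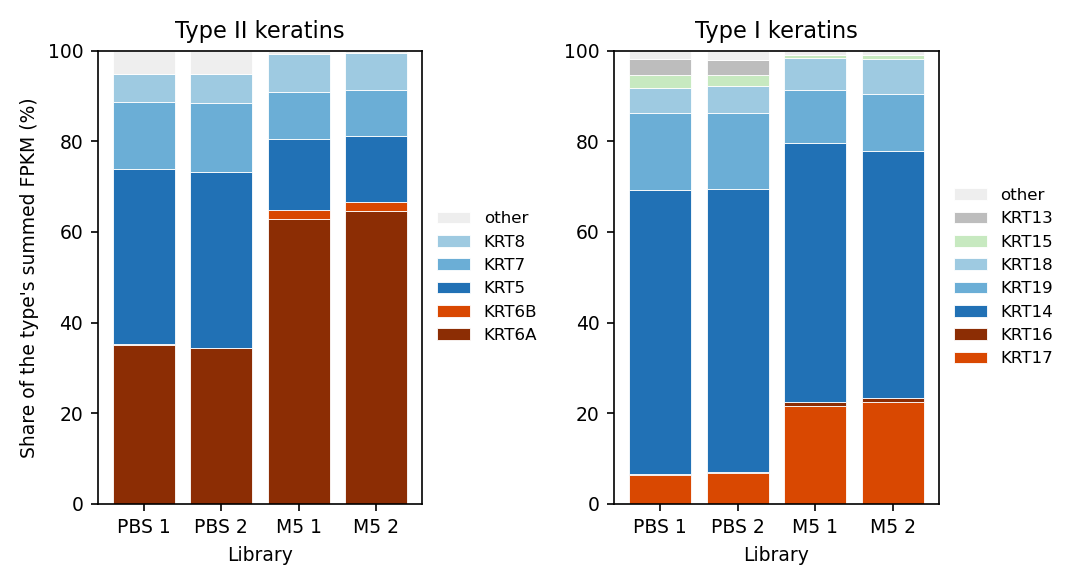
Share of summed FPKM (percent) that each keratin gene takes among type II keratins (left) and type I keratins (right) in each of the 4 libraries, with stress keratins in orange and brown at the bottom of each bar. The KRT6 genes go from 35.2% and 34.3% in PBS to 64.9% and 66.6% in M5, and KRT16 with KRT17 from 6.49% and 7.003% to 22.4% and 23.3%.

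The balance of the 2 keratin types moved less than their composition. Summed type II FPKM per summed type I FPKM was 0.906 and 0.915 in PBS and 0.870 and 0.914 in M5, so the groups overlapped (exact two-sided permutation p = 0.667). Both sums were higher in M5, at 2336 and 2308 FPKM for type II after 1962 and 1933 FPKM, and at 2685 and 2526 FPKM for type I after 2166 and 2111 FPKM.

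Most of the other keratins fell. Of 14 other keratin genes tested, 3 rose, 10 fell, against 27.1% of all tested genes called lower, and KRT19 was not called (log2 fold change -0.05, edgeR adjusted p = 0.426), with a median log2 fold change of -0.92. With library totals 2 rose and 11 fell, beside 2183 higher and 4492 lower of all 10809 tested genes. The 4 tested stress keratins had the 4 highest fold changes of the 18 tested keratin genes. The next were KRT8 and KRT18, the filament pair of simple epithelia, at log2 values of 0.82 and 0.81. Of 6 tested basal and spinous epidermal keratins 5 fell and KRT14 rose. KRT80 fell 4.33-fold, KRT15, a basal and follicle stem cell keratin, 2.79-fold, KRT5 1.95-fold and KRT9, the keratin of palms and soles, 1.84-fold, a call lost without PBS replicate 1 (edgeR adjusted p = 0.0605). Of 7 tested mucosal and simple keratins 2 rose and 4 fell, beside 28.8% higher and 27.1% lower over all tested genes. KRT7, counted as a fall, had a log2 fold change of -0.14, and -0.16 and -0.13 without PBS replicate 1 and 2. Its call was lost in those fits and without a filter (edgeR adjusted p = 0.144). The 3 largest falls were those of KRT4, 278-fold, KRT13, its mucosal partner, 94.6-fold, and KRT3, a corneal keratin, 22.0-fold. These 3, which are among the 10 that fell, passed the filter only through PBS. Their M5 means were 0.063 FPKM for KRT4, 0.717 FPKM for KRT13 and 0.101 FPKM for KRT3. The log2 value of KRT4, -8.12, was -8.91 without M5 replicate 1, and that of KRT3, -4.46, was -5.60 and -3.80 without M5 replicate 1 and 2. KRT81, a hair keratin and the only one of the follicle list to pass the filter, fell 7.31-fold, from 38.3 and 37.6 FPKM to 5.16 and 4.20 FPKM.

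**Figure D3:**
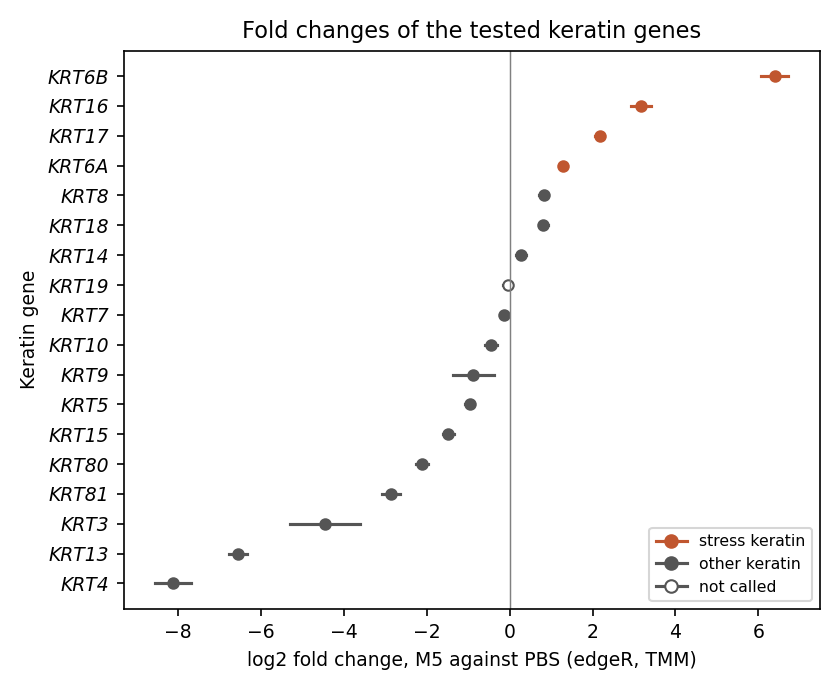
log2 fold change (M5 against PBS, edgeR with TMM) of the 18 tested keratin genes with 95% intervals, stress keratins in orange, others in grey and an open circle where the adjusted p missed 0.05. The 4 tested stress keratins hold the highest places, from 1.28 for KRT6A to 6.39 for KRT6B, and 10 of the 14 others were called lower.

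The neighbours along the chromosomes did not share one direction. On chromosome 12 the tested KRT5 follows KRT6A after 21318 bases and fell, and KRT75, on the other side of KRT6B after 12126 bases, had at most 4 counts in a library. On chromosome 17, KRT14 lies 22857 bases from KRT16 and had a log2 fold change of 0.27, and KRT9 beyond it fell.

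Keratin filaments are tied to desmosomes and hemidesmosomes by plakins and plaque proteins. Of 14 such linker genes, all tested, 5 rose and 4 fell, shares near the 28.8% and 27.1% of all tested genes, with a median log2 fold change of -0.05, near the -0.01 of all tested genes. With library totals 3 rose and 8 fell, beside 2183 higher and 4492 lower of all 10809 tested genes. FAM83H, which recruits casein kinase to keratin filaments, rose by 1.47, and by 0.83 without M5 replicate 1. EPPK1, epiplakin, rose by 0.50. PPL, periplakin of the cornified envelope, fell 1.64-fold and PKP2, a plakophilin of desmosomes, 1.30-fold.

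Transcription factors that have been tied to stress keratin promoters were mostly higher. Of 24 listed, 20 were tested, and of these 16 rose and 2 fell, beside 28.8% higher and 27.1% lower over all tested genes. Their median log2 fold change was 0.69. With library totals it was 0.53 and 15 rose, beside 2183 of all 10809 tested genes. ETS1 rose by 1.77, CEBPD, a C/EBP factor of the acute phase response, by 1.33, and JUNB, an AP-1 subunit, by 1.30, while CEBPA, a C/EBP factor of differentiating cells, fell 3.14-fold. CEBPA passed the filter only through PBS, being at 0.71 and 0.62 FPKM in M5. FOS, counted among the rises, passed only through M5, being at 0.61 and 0.74 FPKM in PBS. STAT3, which carries interleukin 22 and oncostatin M signals, rose by 1.04 and RELA, a subunit of NF-kB, by 0.68, both named after their values were seen. The Hedgehog factors GLI1 and GLI2 and the regulator AIRE were below 1 FPKM in every library.

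The EGF receptor pathway is a known inducer of KRT6 and KRT16. Of 8 tested genes of this list 5 rose, all of them ligands, and 1 fell, beside 28.8% higher and 27.1% lower over all tested genes. HBEGF rose by 4.21, AREG by 2.75, TGFA by 1.81 and EPGN by 1.64 on the log2 scale. The receptor EGFR was at -0.14 (edgeR adjusted p = 0.0426), a call that was lost with DESeq2 or its size factors, without a filter, without either PBS replicate and without M5 replicate 2. All 7 tested receptor genes of the M5 cytokines rose, beside 28.8% of all tested genes called higher, with a median log2 fold change of 1.18. With library totals 5 rose, beside 2183 of all 10809 tested genes. The call for IL17RA was lost when either PBS replicate was left out, and that for TNFRSF1A when PBS replicate 2 was. The largest rises were those of IL1R2, a decoy receptor of interleukin 1, at 2.53, OSMR, the oncostatin M receptor, at 1.97, IL1R1 at 1.21 and IL6ST, the shared chain gp130, at 1.18. Of the 13 listed receptor genes, 6 stayed below 1 FPKM in every library and were not tested in the filtered fit. These were IL17RC, IL22RA1, IL10RB, IL22RA2, TNFRSF1B and LIFR. Without a filter 7 of the 13 rose and 2 fell, beside 3390 higher (12.4%) and 2734 lower of all 27356 genes in that fit.

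**Figure D4:**
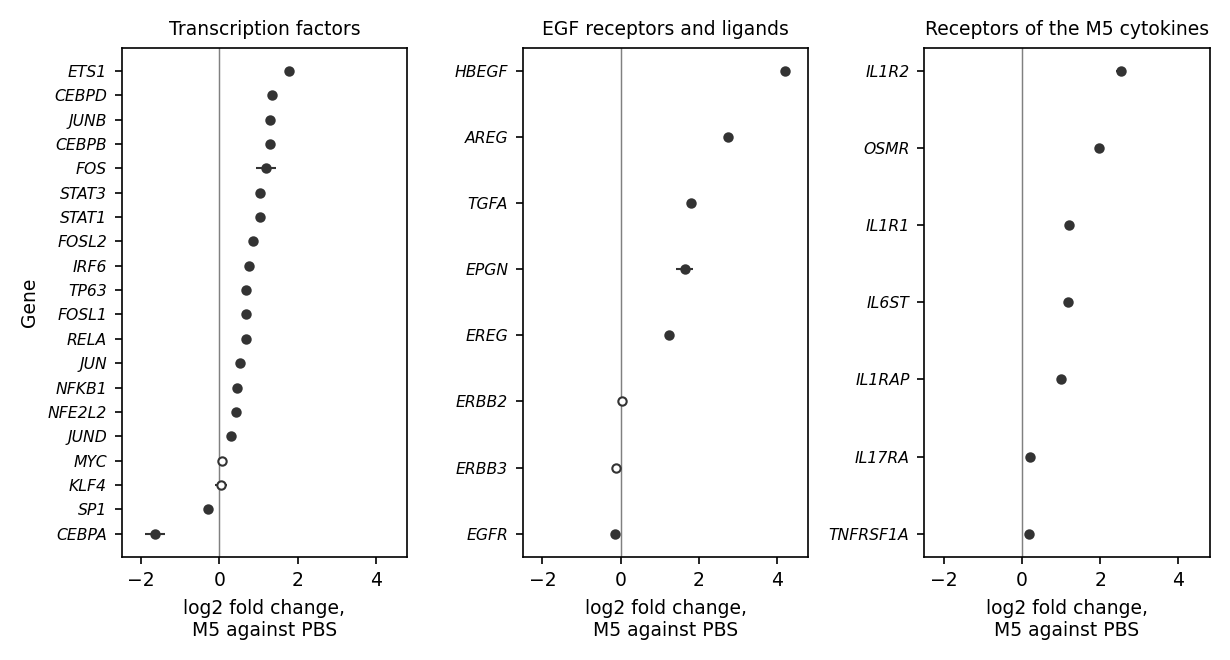
log2 fold change (M5 against PBS, edgeR with TMM) with standard errors for the tested transcription factors tied to stress keratin genes, the EGF receptors and ligands, and the receptors of the M5 cytokines, filled where the adjusted p was under 0.05. ETS1 at 1.77 leads the transcription factors and CEBPA is the lowest, HBEGF at 4.21 leads the ligands, and all 7 tested cytokine receptors are above 0.

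Stress keratins are also read as markers of wound-edge and hyperproliferative keratinocytes. Of 16 genes of that kind, all tested, 14 rose and 2 fell, beside 28.8% higher and 27.1% lower over all tested genes, with a median log2 fold change of 3.76. The list was chosen with these results known and is not independent evidence of a direction. The largest rises were those of SERPINB4, S100A9, S100A8 and S100A7, from 9.27 to 10.73 on the log2 scale, larger than those of the 4 tested stress keratins. SERPINB4, S100A8 and S100A7, with PBS means under 1 FPKM, passed the filter only through M5. Leaving out PBS replicate 1 gave S100A7 a value of 8.63, and leaving out PBS replicate 2 gave it 10.45 and S100A8 11.00. IVL, the envelope protein involucrin, was 1.56-fold lower, and MKI67, a proliferation marker, was 1.51-fold lower (edgeR adjusted p = 5.76e-08). Both were singled out once their values were known. In these libraries the stress keratin genes rose while MKI67 fell.

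The genes whose pattern over the 4 libraries came closest to that of the summed stress keratins were sought among 10252 genes with a symbol and a mean of at least 1 FPKM, by the Euclidean distance between centred log2(FPKM + 1) profiles. The nearest was OAS3, an interferon-induced antiviral enzyme, with 9.12 and 9.03 FPKM in PBS and 24.5 and 25.3 FPKM in M5 (distance 0.032). It was followed by ATOSB (0.037), MARCKSL1, an actin-regulating protein (0.047), INAVA (0.049) and the kinase RPS6KA2 (0.051). With 2 groups of 2 libraries, such a likeness mostly says that these genes had a similar difference on the log2(FPKM + 1) scale. For low genes this need not be a similar fold change. ATOSB, at 0.90 and 0.84 FPKM in PBS and 3.87 and 3.99 FPKM in M5, rose 5.01-fold in the edgeR fit.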

How the data were processed

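Each deposited file held 1 library with a count and an FPKM per Ensembl gene, per the file headers. The deposited count of each gene was divided by the authors' FPKM in the library with its largest count. With the library total this gave a whole-number length to within 1.4e-08 bases, so those FPKM were made from the counts and the library total. Per the submitters' processing notes, the tools were HISAT2 and HTSeq 0.13.5 and the build was GRCh38. The annotation release and strand setting are not given.

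Counts were tested with edgeR 4.0.16 in R 4.3.3 (glmQLFit, glmQLFTest, TMM, two-sided) on genes with a mean of at least 1 FPKM, with Benjamini-Hochberg adjustment over all of them and a threshold of 0.05. Standard errors were derived from the fold change and its F statistic. Lists are described by counts and medians. From each list up to 4 called genes with the largest change are named, and the most abundant keratin. The members and lists were chosen with earlier results of these data known. The test was run on simulated counts for the 10809 genes. In these, 50 genes each were raised 1.5-, 2-, 4- and 8-fold and the others were unchanged. The test recovered all 50 genes changed 4-fold, 96% of those changed 2-fold and 84% of those changed 1.5-fold. Of its calls, 8.2% were false. In the libraries 55.9% of genes were called, in both directions, so that share of false calls may not carry over. Alternatives used DESeq2 1.42.0 and limma 3.58.1 (log2(FPKM + 1) and log2(FPKM + 0.1)), other scalings and filters, a replicate block and each library left out. Positions and transcripts came from GENCODE 29, which holds 93.2% of the identifiers.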

Additional observations from a re-analysis of the deposited data

How the results depend on the processing

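The fold changes of KRT6A, KRT6B, KRT16 and KRT17 kept their direction and their call under every alternative run. Their log2 values ranged from 1.12 to 1.31 for KRT6A, 4.94 to 7.24 for KRT6B, 2.59 to 3.28 for KRT16 and 2.02 to 2.21 for KRT17. The call for KRT6C, from a fit without a filter, rested on both M5 libraries: its log2 values with each library left out ran from 7.25 to 7.66 and depend on the prior count, limma gave 0.49 on log2(FPKM + 1) and 2.34 on log2(FPKM + 0.1), and it was not called when either M5 replicate was left out. Each fit then had fewer samples. The lower KRT6A share of KRT6 counts, -2.48 percentage points, became -3.12 with FPKM, since the copies differ in length. Over all genes, limma on log2(FPKM + 1) called 2010 higher and 4122 lower, with a median log2 fold change of -0.14. Library totals, by which FPKM are scaled as well, called 2183 higher and 4492 lower, with a median of -0.17. The cause of the limma counts was not tested. With a replicate block the log2 values were 1.28 for KRT6A, 6.40 for KRT6B, 3.16 for KRT16 and 2.17 for KRT17, and 3134 genes were higher and 2959 lower. Samples sharing a number did not deviate together (r = -0.01 across genes), so the numbers were not taken as pairs. Depth limits KRT6C and the PBS level of KRT6B.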
